A study of Mus musculus with 16 samples.

Results

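Expression in 3 mouse skin carcinomas with the histological label poorly differentiated, the arrays p53 tumor 2, p53 tumor 4 and p53 tumor 5, was compared with 4 arrays of control skin, so 7 of the 16 arrays of the series entered the comparison. The members were taken from the histology labels alone. All 3 tumors came from FVB mice of genotype k14Cre;p53loxP/loxP, in which Cre recombinase under the keratin K14 promoter inactivates p53 in the keratinocytes of stratified epithelia and leaves it intact in stromal and immune cells. The labels give control skin only as skin of FVB mice, and the methods of the study call it normal and wild type. Ages and treatments are not given in the sources used here. Total RNA of whole tissue was hybridized to Affymetrix mouse arrays, and values are log2 signals, so that a difference of 1 is a factor of 2. Another 6 tumors, labelled undifferentiated or spindle cell carcinoma (2 p53 and 4 pRbp53 tumors, the latter also without pRb), served to show where poorly differentiated tumors differ from that group. Histology and genotype are partly confounded there, since all 3 poorly differentiated tumors are p53 tumors. The 3 tumors of mixed histology were not used in either comparison. The labels do not say that arrays came from separate animals, and each p-value therefore rests on the spread between arrays, which may be technical.

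Skin epidermis is renewed from a basal layer of keratinocytes that express the keratins K5 and K14 and the transcription factor p63. Cells that leave this layer stop dividing, switch to the keratins K1 and K10, and end as cornified cells filled with filaggrin, loricrin and late cornified envelope proteins. A squamous carcinoma is graded by how much of this program it keeps. p53 is a transcription factor that halts division or triggers cell death after DNA damage, and its loss is one of the most frequent changes in squamous carcinomas.

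Median signals of the 16 arrays lay between 5.63 and 5.76. Control skin 2 and 4 were closer to each other (SD of their difference 0.218 over all probesets) than any other pair of control arrays (0.414 to 0.571). The signal of actin probes at the 3′ end exceeded that at the 5′ end by 1.33 in control skin 3 and by 0.36 to 0.60 in the other 6 arrays compared, a difference that grows as RNA is degraded. Control skin 1 and 3 carried signal of Y-linked genes, while control skin 2 and 4 and the 3 tumors did not. In these whole-tissue samples fewer cells of a type and less RNA per cell cannot be told apart.

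A gene was said to rise or fall where limma gave an adjusted p under 0.05 over all 45037 probesets. Of 18193 genes, 1526 rose (8.39%) and 1960 fell (10.8%) in the poorly differentiated tumors against control skin. Without p53 tumor 5, 2239 genes rose (12.3%) and 2478 fell (13.6%). Against undifferentiated or spindle tumors, 844 genes were higher (4.64%) and 816 were lower (4.49%). The 2 comparisons share the same 3 tumor arrays. In the second, differences of histology and of genotype cannot be fully told apart. There 3326 probesets passed, 2024 with genotype as a covariate and 827 among p53 tumors only. The counts of listed genes below are to be set beside these shares over all genes.

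The label was first checked against markers of the basal keratinocyte, and the tumors did not answer it alike. Krt14 read 12.90, 13.17, 13.13 and 13.18 in control skin 1 to 4, and 12.93, 12.81 and 4.41 in p53 tumors 2, 4 and 5. Krt5, its partner in the filament, read 12.90, 12.93, 12.72 and 13.04 in control skin and 11.73, 10.77 and 4.76 in the tumors. Trp63, which encodes p63, read 9.85 to 10.51 in control skin and 9.81, 10.37 and 3.84 in the tumors. The arrays p53 tumor 2 and 4 thus read Krt14 and Trp63 near control skin and Krt5 below it, whereas p53 tumor 5 read all 3 genes within or next to the range of the undifferentiated or spindle tumors, which was 4.36 to 6.99 for Krt14, 5.05 to 5.72 for Krt5 and 3.78 to 5.61 for Trp63. A similar split was seen for Col17a1, the anchoring collagen of the hemidesmosome, which read 11.87 to 12.17 in control skin and 10.59, 8.75 and 3.88 in the tumors. Krt15, a keratin of hair follicle stem cells and the basal layer, differed even between the other two, at 7.92 in p53 tumor 2, 12.97 in p53 tumor 4 and 5.32 in p53 tumor 5, against 12.92 to 13.41 in control skin. The library labelled p53 tumor 5 thus read Krt5, Krt14, Krt15, Trp63 and Col17a1 far below control skin, and values are given for each tumor below where it stood apart. Whether its histological label or its origin is right was not tested, and it is 1 of the 3 arrays behind each difference.

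None of Krt5, Krt14, Krt15, Trp63 and Col17a1 passed with all 3 tumors (adjusted p = 0.0899 to 0.379). Without p53 tumor 5, Krt5 fell by 1.65 (adjusted p = 0.00598) and Col17a1 fell by 2.32 (adjusted p = 0.0124), while Krt14 differed by -0.22 (adjusted p = 0.379) and Trp63 by -0.18 (adjusted p = 0.705). Of 16 genes of the basal layer and hemidesmosome, 2 rose and 2 fell (12.5% each way), where 8.39% of all genes rose and 10.8% fell. Lama5, a laminin chain of epithelial basement membranes, rose by 1.38 (SE 0.14, adjusted p = 0.00087), from 7.54 to 7.63 in control skin to 8.96, 8.72 and 9.19 in the tumors. Itga6, an integrin chain of the hemidesmosome and also a basal marker, went the other way from the basal keratins. It rose, by 0.48 to 0.54 with single arrays left out, and lost its call in 3 of those fits (adjusted p up to 0.0539). Tgfbi, a secreted matrix adhesion protein, fell by 4.33 (SE 0.30, adjusted p = 0.000163). The median of the list was -0.99 with all tumors and -0.33 without p53 tumor 5, against 0.03 over all genes.

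**Figure D1:**
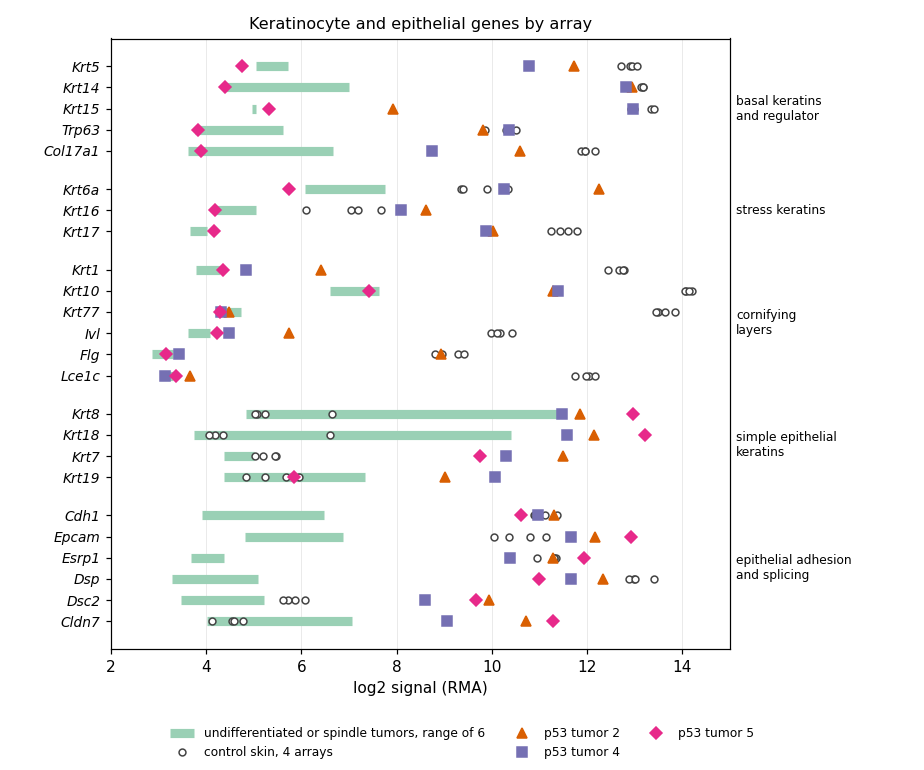
Log2 signal of keratinocyte and epithelial genes. Open circles are the 4 control skin arrays, filled symbols the 3 poorly differentiated tumors and green bars the range of the 6 undifferentiated or spindle tumors. In p53 tumors 2 and 4 Krt14 and Trp63 lie near control skin and Krt5 to its left, in p53 tumor 5 these genes lie at or next to the green bars, and Krt8, Krt18 and Cldn7 are above control skin in all 3 tumors.

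Most genes of the cornifying layers fell in the poorly differentiated tumors. Of 35 measured genes, 26 fell and none rose, with a median of -4.90. Krt77, a keratin of the upper epidermis and sweat ducts, read 13.48, 13.44, 13.85 and 13.63 in control skin and 4.48, 4.30 and 4.28 in p53 tumors 2, 4 and 5, and it fell by 9.24 (SE 0.14, adjusted p = 6.43e-07). Krt1, the main keratin of suprabasal cells, read 12.44, 12.66, 12.79 and 12.74 in control skin and 6.41, 4.83 and 4.35 in the tumors, and it fell by 7.46 (SE 0.45, adjusted p = 8.42e-05). The values of the tumors did not overlap those of control skin for either gene. They were at the level of the undifferentiated or spindle tumors for Krt77 (4.30 to 4.72) and above it for Krt1 (3.80 to 4.29).

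Proteins of the cornified envelope went the same way. Lor, which encodes loricrin, fell by 6.57 (SE 0.19, adjusted p = 2.32e-06), and Ivl, which encodes involucrin, fell by 5.35 (SE 0.35, adjusted p = 0.000126). Lce1c fell by 8.59 and Lce1m fell by 8.07 (adjusted p = 6.97e-07 and 6.43e-07), although members of the Lce1 family are so alike that probes may not tell them apart. Genes of desquamation fell with them. Dsg1a, a desmosomal cadherin of the upper layers, read 10.93 to 11.45 in control skin and 6.39, 4.23 and 3.17 in the tumors (adjusted p = 0.000991). Klk7, a protease that cuts such cadherins, fell by 4.90 (SE 0.53, adjusted p = 0.0012).

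Some differentiation genes were near control skin in single tumors. Flg, which encodes filaggrin, read 9.30, 8.96, 8.82 and 9.42 in control skin and 8.94, 3.42 and 3.17 in the tumors, so that p53 tumor 2 stood inside the control range (adjusted p = 0.0946). Without p53 tumor 2, Flg fell by 5.83 (adjusted p = 4.94e-05). Asprv1, a protease that processes filaggrin, read 11.58 to 12.08 in control skin and 12.25, 11.46 and 5.71 in the tumors. Krt10 read 14.05 to 14.21 in control skin and 11.29, 11.39 and 7.41 in the tumors, and it fell by 4.09 (SE 0.91, adjusted p = 0.0252). Its call was lost when any of the 4 control arrays was left out (adjusted p = 0.0597 to 0.07), and without p53 tumor 5 it fell by 2.78 (adjusted p = 3.89e-05). Krt10 was thus higher in p53 tumors 2 and 4 than in p53 tumor 5, and Flg was high in p53 tumor 2 alone of the 3. Without p53 tumor 5, again 26 of the 35 genes fell.

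Krt18 and Krt8, keratins of simple, single-layered epithelia, had the largest rises among genes that passed without overlap. Krt18 read 4.35, 4.19, 6.60 and 4.05 in control skin and 12.15, 11.57 and 13.22 in p53 tumors 2, 4 and 5, a rise of 7.52 (SE 0.69, adjusted p = 0.000591). Its partner Krt8 read 5.23, 5.06, 6.64 and 5.03 in control skin and 11.85, 11.47 and 12.97 in the tumors, a rise of 6.61 (SE 0.50, adjusted p = 0.000251). In both genes control skin 3 was the highest control array and still far below every tumor. Krt7, a keratin of glandular ducts, rose by 5.23 (SE 0.38, adjusted p = 0.000214), from 5.03 to 5.47 in control skin to 11.49, 10.30 and 9.76.

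Of 6 simple epithelial keratins, 3 rose and none fell. Krt19 was high in p53 tumors 2 and 4 (9.01 and 10.06) and near control skin in p53 tumor 5 (5.84, against 4.84 to 5.94), and it rose by 4.11 only without that tumor (adjusted p = 0.000695). Krt7 was also 5.81 higher than in undifferentiated or spindle tumors (adjusted p = 3.83e-05), all of which read 4.38 to 5.0. Krt8 and Krt18 ranged widely in the latter (4.84 to 11.41 and 3.75 to 10.40) and did not pass against them (adjusted p = 0.0651 and 0.0597). Without p53 tumor 3, a tumor of that group, the differences were 6.16 for Krt8 and 6.42 for Krt18 (adjusted p = 0.00852 and 0.0264).

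Genes of epithelial cohesion separated the poorly differentiated tumors, p53 tumor 5 included, from the undifferentiated or spindle ones. Cdh1, which encodes E-cadherin, read 10.89, 10.90, 11.37 and 11.11 in control skin, 11.30, 10.96 and 10.62 in p53 tumors 2, 4 and 5, and 3.91 to 6.48 in undifferentiated or spindle tumors. Esrp1, a splicing factor of epithelial cells, read 10.94 to 11.34 in control skin, 11.29, 10.37 and 11.93 in the tumors, and 3.68 to 4.37 in the undifferentiated or spindle group. The 2 genes were higher than in that group by 6.09 (SE 0.50, adjusted p = 0.000258) and 7.22 (SE 0.30, adjusted p = 5.4e-06), and neither passed against control skin (adjusted p = 0.801 and 0.972). Fxyd3, a regulator of the sodium pump in epithelia, was 7.57 higher than in undifferentiated or spindle tumors (adjusted p = 2.33e-05). Over the 40 genes of desmosomes, junctions and epithelial regulators, 28 were higher than in undifferentiated or spindle tumors and none was lower, with a median difference of 3.45.

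Against control skin the same list was split, with 13 genes that rose, 6 that fell and a median of 0.00. Gjb5, a connexin of stratified epithelia, fell by 4.87 (SE 0.31, adjusted p = 0.000115). Dsc1, a desmocollin of the upper layers counted with the cornifying genes, fell by 5.49 (SE 0.85, adjusted p = 0.00591), from 10.94 to 11.12 in control skin to 7.06, 6.43 and 3.14. Dsc2, the widely expressed desmocollin, rose by 3.58 (SE 0.32, adjusted p = 0.000496), from 5.61 to 6.08 in control skin to 9.94, 8.60 and 9.67. Cldn7, a tight junction protein of glandular epithelia, read 4.55, 4.59, 4.78 and 4.11 in control skin and 10.72, 9.06 and 11.28 in the tumors, a rise of 5.84 (SE 0.49, adjusted p = 0.0004). Its relative Cldn3 rose by 3.36 (SE 0.54, adjusted p = 0.0068), Dsg2 by 1.52 (adjusted p = 0.0166) and Grhl2, a regulator of epithelial junction genes, by 1.05 (adjusted p = 0.0148). Epcam, a surface glycoprotein of simple epithelia, rose by 1.66 (adjusted p = 0.0231) but lost its call without control skin 1, 3 or 4 or p53 tumor 2 (adjusted p = 0.0509 to 0.0707). Dsp, the desmosomal plaque protein, fell by 1.40 (adjusted p = 0.0235) and lost its call without any control array or p53 tumor 4 (adjusted p = 0.0556 to 0.0654), while Epcam and Dsp stood 6.96 and 7.50 above the undifferentiated or spindle tumors (adjusted p = 0.000104 and 4.48e-05).

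Some genes known from milk and glands were among the largest rises. Milk, saliva and tears are made by glands that arise from the same embryonic ectoderm as the epidermis, and in the mammary gland the factors Elf5 and Stat5 switch on the caseins. Csn1s1, a casein, read 4.32, 3.91, 5.87 and 4.19 in control skin and 10.93, 9.41 and 13.01 in p53 tumors 2, 4 and 5, a rise of 6.55 (SE 0.85, adjusted p = 0.00278). Elf5 read 4.86, 4.79, 5.72 and 5.0 in control skin and 10.20, 9.45 and 12.37 in the tumors, a rise of 5.58 (SE 0.65, adjusted p = 0.00175). Ltf, which encodes the iron-binding milk protein lactoferrin, read 4.88, 4.56, 6.25 and 4.67 in control skin and 10.47, 11.37 and 12.37 in the tumors, a rise of 6.31 (SE 0.55, adjusted p = 0.000471). For each of the 3 genes the tumors lay apart from control skin, and p53 tumor 5 was the highest.

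The promoters of Csn1s1 and Csn2 are shown because both caseins read high in the tumors, although Csn2 did not pass, and because the STAT word TTCNNNGAA stands close to the start site in each. The sequences are the 250 bases before the start site in RefSeq, build GRCm38.p6, at chr5:87665958-87666207 on the plus strand for Csn1s1 and chr5:87699426-87699675 on the minus strand for Csn2, with the word in capitals, its first base at -100 in Csn1s1 and -93 in Csn2 from the start site.
Csn1s1: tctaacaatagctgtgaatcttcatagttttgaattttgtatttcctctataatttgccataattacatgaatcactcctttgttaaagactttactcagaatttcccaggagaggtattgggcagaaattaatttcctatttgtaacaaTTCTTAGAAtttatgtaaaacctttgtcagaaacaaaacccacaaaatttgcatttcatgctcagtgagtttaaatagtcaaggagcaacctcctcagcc
Csn2: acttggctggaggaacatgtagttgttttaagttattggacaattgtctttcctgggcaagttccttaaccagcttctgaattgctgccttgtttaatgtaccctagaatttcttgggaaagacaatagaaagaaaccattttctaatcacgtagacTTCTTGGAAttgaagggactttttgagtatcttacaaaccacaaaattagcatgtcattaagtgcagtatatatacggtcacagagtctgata
Read on both strands, the word was in the windows of 3 of 12 milk and gland genes (25%) and of 2197 of 27025 genes in all (8.13%). A match describes letters only.

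Other caseins were high in most of the tumors, but control skin 3 carried them as well. Csn2 read 3.61, 3.51, 9.83 and 4.47 in control skin and 11.65, 8.75 and 13.67 in the tumors (difference 6.0, adjusted p = 0.0668). Csn3 read 4.87, 4.29, 10.72 and 6.34 in control skin and 11.06, 11.30 and 14.29 in the tumors (difference 5.66, adjusted p = 0.057). Without control skin 3, Csn2 rose by 7.49 (adjusted p = 0.0121) and Csn3 by 7.05 (adjusted p = 0.00763). Lalba, the milk protein alpha-lactalbumin, read 4.73 to 5.38 in control skin and 7.04, 7.07 and 11.21 in the tumors, and it passed only without p53 tumor 5, with a rise of 2.06 (adjusted p = 0.00117). Wap was above control skin (4.29 to 4.82) mainly in p53 tumor 2, at 8.28. Csn1s2a was high in p53 tumors 2 and 5 (10.52 and 12.76) and at 4.26 in p53 tumor 4, within the control range of 3.86 to 6.89. Of 14 milk and gland genes 3 rose and 1 fell, with a median of 3.02, where 8.39% of all genes rose and 10.8% fell. Against undifferentiated or spindle tumors 5 were higher, where 4.64% of all genes were. Of those 5, Csn1s1, Csn3 and Lalba lost that call when single arrays were left out, Csn1s1 without p53 tumor 2 (adjusted p = 0.0508).

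Lcn2 and Wfdc18 also rose. Of 24 genes of stressed and wounded keratinocytes, a list that holds Lcn2, 2 rose and 2 fell. Without p53 tumor 5, 8 rose and 3 fell, where 12.3% of all genes rose and 13.6% fell. The mean log2 signal of the list was 6.54 to 7.10 in control skin and 7.68, 7.33 and 5.55 in p53 tumors 2, 4 and 5. Its members Krt6a, Krt16, Krt17 and Sprr1b did not pass with all 3 tumors. With 1 array left out, Krt17 passed as lower and Sprr1b as higher. Lcn2, an antibacterial protein that binds siderophores, read 4.95, 4.17, 8.72 and 5.53 in control skin and 11.81, 11.96 and 13.34 in the tumors (rise 6.52, SE 1.04, adjusted p = 0.00673). Wfdc18, a secreted protein of the whey acidic protein family, read 6.11, 6.56, 10.30 and 7.75 in control skin and 13.90, 13.37 and 14.08 in the tumors (rise 6.11, SE 0.94, adjusted p = 0.00576). Control skin 3 was again the highest control array in both, and also for Krt8, Krt18, Csn1s1, Elf5 and Ltf. The same array had the largest difference between actin probes of the 7 arrays compared, and the part of this in its values was not tested. Without control skin 3 the rise of each of Lcn2, Wfdc18, Csn1s1, Elf5 and Ltf still passed.

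Mia, a small secreted protein first found in melanoma, read 4.09, 4.06, 4.61 and 4.15 in control skin and 9.60, 9.35 and 9.60 in the tumors, a rise of 5.29 (SE 0.17, adjusted p = 3.78e-06). The 3 tumors differed little from each other. Sox10, a factor of neural crest cells and of gland progenitors, rose by 2.96 (SE 0.20, adjusted p = 0.000126), from 6.18 to 6.78 in control skin to 9.26, 9.31 and 9.64. Kit, the receptor of stem cell factor, rose by 4.58 (SE 0.32, adjusted p = 0.000174), from 6.23 to 7.0 in control skin to 11.47, 10.42 and 11.60. Sox10 is also made by melanocytes and Schwann cells and Kit by melanocytes and mast cells, and the part of such cells in these values was not tested. Of 9 melanocyte markers 2 fell and none rose, and of 10 mast cell markers 5 fell and Kit alone rose. Of 4 measured Schwann cell markers (8 listed) 2 fell and Sox10 alone rose. Over all genes 10.8% fell and 8.39% rose. Dct, an enzyme of melanin synthesis, fell by 3.33 (adjusted p = 0.000991) to 3.46 to 4.18. Cpa3, a mast cell protease, fell by 5.14 (adjusted p = 0.000716) to 4.24 to 5.39. Mbp, a myelin protein, was at 7.93 to 8.29 against 8.64 to 8.85 in control skin and fell by 0.63 (adjusted p = 0.0196), a call that was lost without control skin 2 or 4 or p53 tumor 2 (adjusted p = 0.053 to 0.0599).

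The transcription factors Ehf, Tfcp2l1 and Tfap2c rose as well. Ehf, a factor related to Elf5, rose by 4.38 (SE 0.50, adjusted p = 0.00155), from 4.68 to 6.29 in control skin to 10.61, 9.17 and 10.55. Tfcp2l1, a factor of ducts in kidney and salivary gland, read 4.54 to 4.73 in control skin and 11.97, 9.79 and 7.78 in the tumors, a rise of 5.20 (SE 0.85, adjusted p = 0.00733). Tfap2c, a factor of ectoderm and mammary epithelium, rose by 1.40 (adjusted p = 0.0149) and was 6.97 above the undifferentiated or spindle tumors (adjusted p = 4.2e-06). Kcnk1, a potassium channel, rose by 5.19 (SE 0.40, adjusted p = 0.00026). In undifferentiated or spindle tumors Elf5, Ehf and Kcnk1 fell against control skin, and poorly differentiated tumors exceeded them by 6.63, 6.93 and 6.22 (adjusted p = 0.000519, 9.19e-06 and 1.87e-05).

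**Figure D2:**
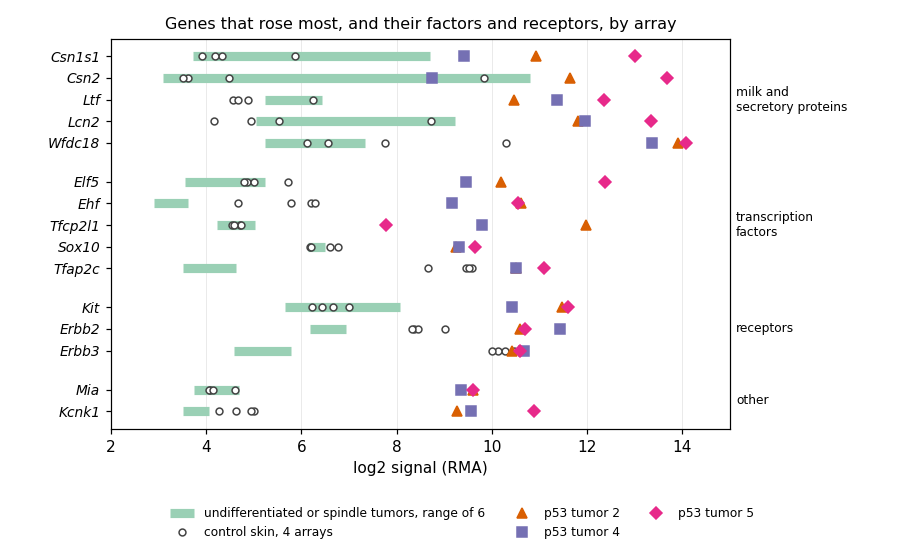
Log2 signal of milk and secretory genes, transcription factors, receptors and other genes, by array, with symbols as in the plot of keratinocyte genes. All but Csn2 and Erbb3 rose against control skin. Every tumor lies above every control array for Csn1s1, Ltf, Elf5, Ehf and Kit, and for Csn2 and Wfdc18 1 control array, control skin 3, lies far to the right of the other controls.

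Most measured genes of cell division rose in the poorly differentiated tumors. The study's 20-gene signature of p53 tumors is made mostly of mitotic genes, and the study chose it on other arrays of these tumor models and on human tumor data. Of its 20 genes 17 rose and none fell, with a median of 2.02 against 0.03 over all genes, and 19 had groups that did not overlap, upward, where 16.4% of all genes did. Bub1, a kinase of the spindle checkpoint, read 4.14, 5.80, 5.51 and 5.40 in control skin and 9.21, 8.66 and 8.72 in p53 tumors 2, 4 and 5, a rise of 3.65 (SE 0.39, adjusted p = 0.00119). Cdk1, the kinase that starts mitosis, read 6.01, 7.22, 7.02 and 6.93 in control skin and 9.74, 9.65 and 9.56 in the tumors, a rise of 2.86 (SE 0.28, adjusted p = 0.000856). Ube2c, which with the anaphase complex marks cyclins for destruction, rose by 2.81 (SE 0.24, adjusted p = 0.000423), and Aurka, a kinase of the spindle poles, by 2.18 (SE 0.25, adjusted p = 0.00156). Control skin 1 was the lowest control array for Bub1, Cdk1, Ube2c and Aurka.

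The genes Cdc20, Kpna2 and Mcm4 of the signature did not pass. Cdc20, the activator of the anaphase complex, read 7.82, 8.82, 9.32 and 8.67 in control skin and 10.54, 10.78 and 9.14 in the tumors, so that p53 tumor 5 lay within the control range (adjusted p = 0.0831). It rose by 2.0 without that tumor (adjusted p = 0.0112). Top2a, which untangles DNA before mitosis, read 6.84, 8.35, 8.45 and 8.14 in control skin and 11.84, 13.07 and 9.66 in the tumors, a rise of 3.58 (SE 0.79, adjusted p = 0.0237). Its call was lost without control skin 1, 2 or 4 or without p53 tumor 2 or 4 (adjusted p = 0.0535 to 0.0699), and without p53 tumor 5 the rise was 4.51 (adjusted p = 0.00166).

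The promoters of Bub1, Top2a and Cdk1 are shown because CCAAT boxes and the cell cycle element TTTGAA are known from promoters of genes of the G2 and M phases. Each is the window of 250 bases before the start site in RefSeq, build GRCm38.p6, all on the minus strand, at chr2:127831860-127832109 for Bub1, chr11:99024190-99024439 for Top2a and chr10:69352913-69353162 for Cdk1. Capitals mark CCAAT (or ATTGG on the other strand), TTTGAA (or TTCAAA) and, in Cdk1, the E2F word TTTCGCGC.
Bub1: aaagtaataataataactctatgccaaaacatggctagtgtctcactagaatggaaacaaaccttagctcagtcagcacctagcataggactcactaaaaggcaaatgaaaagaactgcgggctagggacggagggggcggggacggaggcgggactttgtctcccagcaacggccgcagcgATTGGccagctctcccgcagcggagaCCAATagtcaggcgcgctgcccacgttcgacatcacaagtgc
Top2a: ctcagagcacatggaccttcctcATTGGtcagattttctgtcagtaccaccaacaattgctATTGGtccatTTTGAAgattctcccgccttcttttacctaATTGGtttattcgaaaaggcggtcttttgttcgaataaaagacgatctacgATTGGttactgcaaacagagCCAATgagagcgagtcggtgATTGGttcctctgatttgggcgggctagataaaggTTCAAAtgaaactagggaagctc
Cdk1: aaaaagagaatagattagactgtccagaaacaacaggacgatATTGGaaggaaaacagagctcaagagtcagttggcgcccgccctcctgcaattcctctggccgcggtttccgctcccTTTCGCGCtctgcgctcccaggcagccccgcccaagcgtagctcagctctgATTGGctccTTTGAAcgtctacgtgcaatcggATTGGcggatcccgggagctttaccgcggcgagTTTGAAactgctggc
The window of Top2a held CCAAT 6 times and TTTGAA 2 times, that of Cdk1 held CCAAT 3 times and TTTGAA 2 times, and that of Bub1 held CCAAT 2 times and no TTTGAA. The window of Birc5, another gene of the signature, held none of these words. Searched on both strands, CCAAT was in 12 of the 17 signature windows (70.6%) and in 37.5% of all 27025, and TTTGAA in 7 of 17 (41.2%) and in 18.3%. In the mitosis list CCAAT was in 12 of 19 windows (63.2%) and TTTGAA in 5 (26.3%). In the DNA replication list CCAAT was in 16 of 28 windows (57.1%) and TTTGAA in 4 (14.3%). The E2F words TTTGGCGC, TTTCCCGC, TTTGCCGC and TTTCGCGC were in 9 of 28 windows of DNA replication genes (32.1%) and in 2.16% of all. They were in 1 of 17 signature windows and 0 of 19 mitosis windows. These are counts of letters in a window and say nothing of binding.

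Of 24 genes of mitosis, 22 rose and none fell (median 1.96). Kif11, the motor that pushes spindle poles apart, rose by 2.62 (SE 0.34, adjusted p = 0.00268), from 4.37 to 5.45 in control skin to 7.97, 7.74 and 7.05. Ccnb2, a B-type cyclin, rose by 2.45 (SE 0.26, adjusted p = 0.00111). Of 31 genes of DNA replication 24 rose and none fell (median 1.35). Rrm2, which makes deoxynucleotides, rose by 2.49 (SE 0.36, adjusted p = 0.00458), from 7.35 to 8.68 in control skin to 10.18, 11.14 and 10.80, and Tk1, the thymidine kinase of S phase, by 2.26 (SE 0.25, adjusted p = 0.00147). Of the replication genes 12 rose without p53 tumor 4 and 13 without p53 tumor 2. Control skin 1 had the lowest mean log2 signal of the list among control arrays, 6.70 against 7.26 to 7.57, and the tumors had 8.84, 8.84 and 8.48. Of 15 genes of homologous recombination and Fanconi repair 10 rose (median 1.04), among them Exo1, a nuclease that trims DNA ends, by 2.21 (SE 0.22, adjusted p = 0.000838).

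No gene of the signature, mitosis, replication or repair lists passed against undifferentiated or spindle tumors in either direction, where 4.64% of all genes were higher and 4.49% lower. The medians of these 4 lists were -0.33, -0.31, -0.26 and -0.13. The undifferentiated or spindle tumors spread widely, with Ube2c for example at 8.07 to 11.44 against 9.67 to 10.23 in the poorly differentiated tumors (difference 0.05, SE 0.74).

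**Figure D3:**
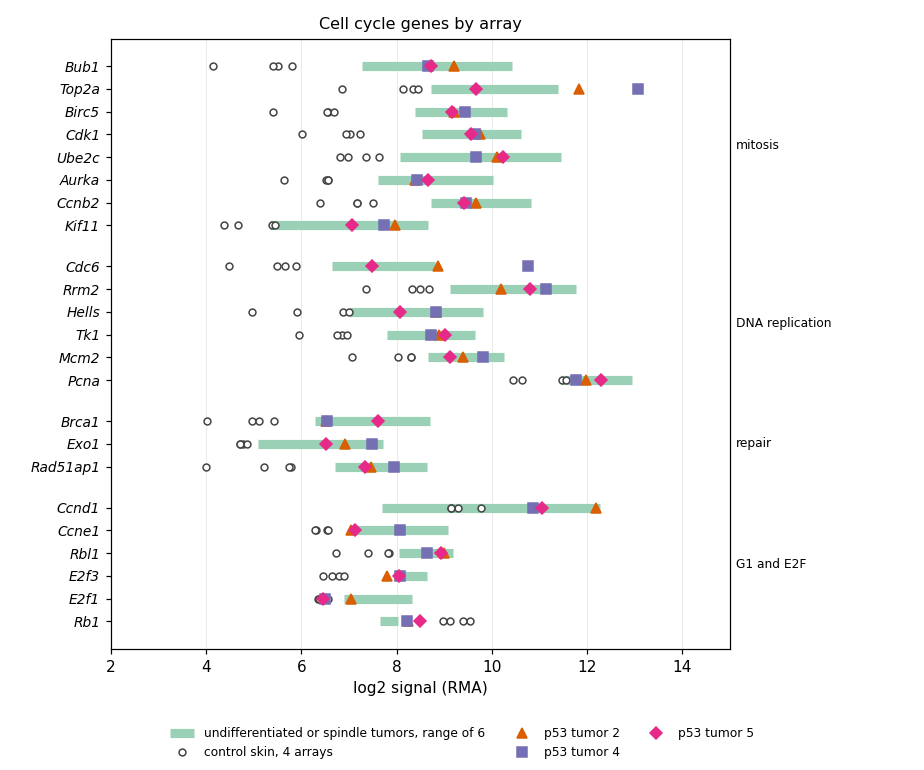
Log2 signal of cell cycle genes by array, with symbols as in the plot of keratinocyte genes. The 3 tumors lie to the right of the 4 control arrays for Bub1, Cdk1, Birc5 and Tk1 and inside the bars of the undifferentiated or spindle tumors, and Rb1 is the gene whose tumors lie to the left of control skin.

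Rb1, which encodes the pRb protein that holds back E2F factors, fell in these tumors, which carry loxP sites in p53 alone. It read 9.12, 9.54, 8.98 and 9.40 in control skin and 8.24, 8.21 and 8.50 in the tumors, and it fell by 0.94 (SE 0.17, adjusted p = 0.0112). Against the undifferentiated or spindle tumors, 4 of which were also without pRb, Rb1 did not pass (difference 0.38 to 0.52 with single arrays left out). The part of the tissue mixture in this fall was not tested. Over 25 genes of RB and E2F factors, G1 cyclins and CDK inhibitors, 8 rose and 2 fell. Ccnd1, the cyclin that opens G1, read 9.14 to 9.76 in control skin and 12.19, 10.85 and 11.06 in the tumors, a rise of 2.04 (SE 0.34, adjusted p = 0.0079). E2f3, an activating E2F, rose by 1.28 (SE 0.15, adjusted p = 0.00165), and E2f7, a repressing one, by 1.40 (SE 0.21, adjusted p = 0.0056), whereas E2f1 differed by 0.23 (adjusted p = 0.443). Cdkn2a, which encodes p16 and p19Arf, read 3.57 to 4.89 in control skin, 5.81, 7.53 and 4.10 in the tumors and 7.52 to 9.09 in the undifferentiated or spindle group. It rose by 2.42 without p53 tumor 5 (adjusted p = 0.0224).

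Of 25 genes known as p53 targets, 5 fell and 2 rose, with a median of -0.11, where 10.8% of all genes fell and 8.39% rose. Cdkn1a, which encodes the CDK inhibitor p21, read 10.67, 10.92, 11.47 and 10.79 in control skin and 11.66, 10.10 and 10.40 in the tumors (difference -0.25, adjusted p = 0.752). Mdm2, whose product degrades p53, differed by 0.47 (adjusted p = 0.133). Fas, a death receptor, read 7.14 to 7.39 in control skin and 5.51, 5.66 and 5.62 in the tumors, and it fell by 1.69 (SE 0.12, adjusted p = 0.00017). Dram1, a lysosomal protein of autophagy, fell by 2.40 (SE 0.37, adjusted p = 0.00595), and Eda2r, the ectodysplasin A2 receptor, fell by 1.93 (SE 0.24, adjusted p = 0.0024). Plk2, a kinase of the stress response, rose by 1.93 (SE 0.32, adjusted p = 0.00771), and the p53 tumor values of both Plk2 (9.58 to 10.86) and Fas did not overlap control skin.

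Many mesenchymal regulators and matrix genes were below control skin and below the undifferentiated or spindle tumors. Epithelial tumor cells that turn into migrating, fibroblast-like cells switch on Zeb, Snail and Twist factors, vimentin and matrix genes. Zeb1, a repressor of E-cadherin, read 8.99, 8.88, 9.20 and 8.97 in control skin and 6.84, 7.22 and 6.48 in p53 tumors 2, 4 and 5, and it fell by 2.16 (SE 0.19, adjusted p = 0.000489). The undifferentiated or spindle tumors read 9.26 to 10.58, and the poorly differentiated ones differed from them by -3.27 (adjusted p = 0.000498). Prrx1, a homeobox factor of mesenchyme, fell by 3.19 (SE 0.40, adjusted p = 0.00234), from 10.53 to 10.98 in control skin to 8.29, 7.92 and 6.52. Snai1 differed from control skin by 0.10 (adjusted p = 0.892) and from the undifferentiated or spindle tumors by -3.02 (adjusted p = 0.00967). Vim, the vimentin gene, read 12.70, 12.69, 12.15 and 12.38 in control skin and 11.49, 11.78 and 11.13 in the tumors, and it fell by 1.02 (adjusted p = 0.0185), a call that was lost without control skin 1 or 2 or p53 tumor 2 (adjusted p = 0.0502 to 0.0569). It differed from the undifferentiated or spindle tumors by -2.0 (adjusted p = 0.000586).

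Of 23 mesenchymal genes 10 fell and 1 rose (median -1.19), and 14 were below the undifferentiated or spindle tumors (median -2.25). The number that fell was 6 without control skin 1 or control skin 2. Of 28 genes of fibroblast matrix and collagen crosslinking 14 fell and 1 rose (median -1.98), and 11 were below the undifferentiated or spindle tumors. Dcn, the collagen-binding proteoglycan decorin of dermal fibroblasts, read 13.65, 13.46, 13.62 and 13.54 in control skin and 10.72, 9.79 and 8.85 in the tumors, and it fell by 3.78 (SE 0.39, adjusted p = 0.00101). Col3a1, a fibrillar collagen, fell by 2.28 (SE 0.43, adjusted p = 0.0125), from 13.68 to 14.24 in control skin to 11.91, 12.54 and 10.60. Lum, a keratan sulfate proteoglycan of the same matrix, fell by 4.26 (SE 0.21, adjusted p = 3.47e-05), and Dpt, the dermal matrix protein dermatopontin, fell by 6.20 (SE 0.45, adjusted p = 0.000214). The array p53 tumor 5 was the lowest tumor for Dcn and Col3a1. Tnc, the wound matrix protein tenascin C, read 5.97 to 7.22 in control skin and 9.06, 9.49 and 6.70 in the tumors, and it rose by 2.65 without p53 tumor 5 (adjusted p = 0.00328).

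Some genes moved in opposite directions in the tumor types. Mmp9, a gelatinase, read 6.49 to 7.66 in control skin, 5.27, 5.42 and 3.99 in the poorly differentiated tumors and 8.47 to 11.61 in the undifferentiated or spindle ones. Grem1, a secreted inhibitor of BMP signals, read 6.39 to 7.35 in control skin, 4.22, 5.05 and 5.06 in the poorly differentiated tumors and 8.39 to 11.90 in the others. Bnc2, a zinc finger protein of dermal fibroblasts, read 7.30 to 8.56, then 4.24, 5.49 and 4.19, then 8.34 to 10.52. The 3 genes fell against control skin (differences -2.28, -2.0 and -3.51, adjusted p = 0.0109, 0.00633 and 0.00197), while in undifferentiated or spindle tumors they rose by 3.09, 3.33 and 1.64. Mmp13, a collagenase, rose in the poorly differentiated tumors by 2.50 (SE 0.41, adjusted p = 0.00786), to 5.45, 7.28 and 5.82 from 3.38 to 3.90. Timp2, an inhibitor of these proteases, fell by 3.15 (SE 0.60, adjusted p = 0.0134).

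**Figure D4:**
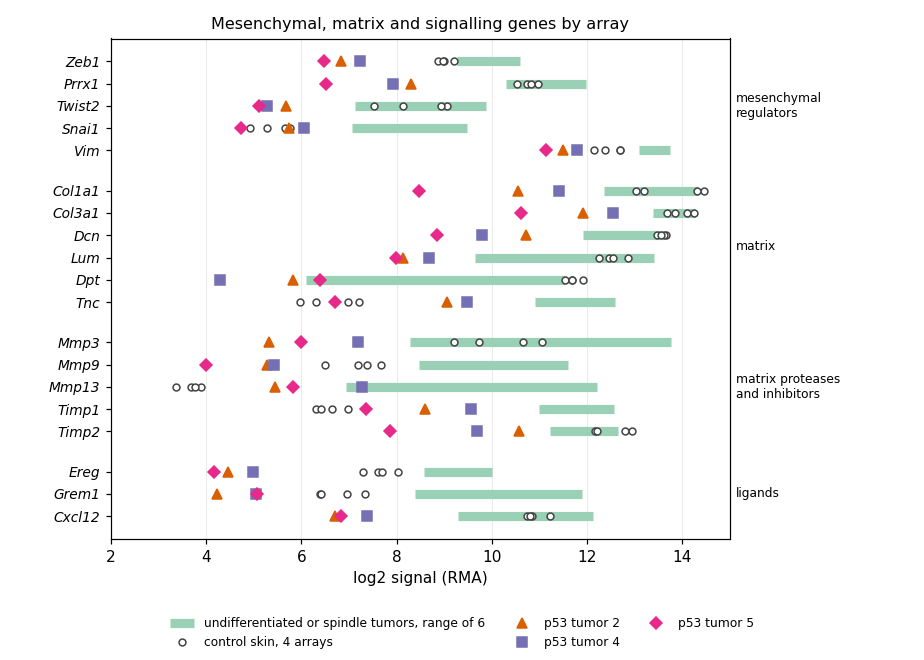
Log2 signal of mesenchymal, matrix and signalling genes by array, with symbols as in the plot of keratinocyte genes. For Zeb1, Prrx1, Mmp9, Ereg and Grem1 the 3 tumors lie to the left of control skin and the bars of the undifferentiated or spindle tumors overlap it or lie to the right of it.

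Signalling through the EGF receptor family drives keratinocyte growth, and its receptors and ligands did not move together. Erbb2, the receptor that pairs with the others, read 8.37, 8.44, 9.01 and 8.33 in control skin and 10.58, 11.43 and 10.69 in the tumors, a rise of 2.36 (SE 0.26, adjusted p = 0.00138), and was 4.32 above the undifferentiated or spindle tumors (adjusted p = 2.12e-05). Egfr, the EGF receptor itself, fell by 1.66 (SE 0.21, adjusted p = 0.00232), from 9.56 to 10.03 to 8.31, 8.35 and 7.70. Erbb3 differed by 0.34 from control skin (adjusted p = 0.179) and stood 5.40 above the undifferentiated or spindle tumors (adjusted p = 2.08e-05). Among ligands, Btc fell by 3.32 (SE 0.26, adjusted p = 0.000311), Ereg fell by 3.12 (SE 0.25, adjusted p = 0.000306) and Egf fell by 1.95 (SE 0.20, adjusted p = 0.000948). Ereg read 7.29 to 8.03 in control skin, 4.46, 4.99 and 4.16 in the tumors and 8.58 to 9.99 in the undifferentiated or spindle group. Tgfa read 7.38 to 7.81 in control skin and 9.46, 10.66 and 8.18 in the tumors, and rose by 2.48 without p53 tumor 5 (adjusted p = 0.00262). Dusp6, a phosphatase induced by and acting on ERK, rose by 3.0 (SE 0.41, adjusted p = 0.00332). Of the 17 genes of this list, 3 rose and 5 fell.

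Of 23 genes of hypoxia and glycolysis 14 rose and 1 fell (median 1.25). The number that rose was 8 with all 16 arrays in 1 fit and 7 with control skin 2 and 4 alone as control. Car12, a carbonic anhydrase of the cell surface, read 7.09, 8.13, 7.79 and 7.84 in control skin and 10.38, 10.79 and 10.83 in the tumors, a rise of 2.95 (SE 0.26, adjusted p = 0.000467). Egln3, the oxygen sensor that is itself induced by HIF, rose by 2.23 (SE 0.26, adjusted p = 0.00166), and Pgk1, an enzyme of glycolysis, by 1.14 (SE 0.17, adjusted p = 0.0046). Aldoc, an aldolase, rose by 3.52 (SE 0.64, adjusted p = 0.0112), with p53 tumor 5 the highest at 13.41 against 10.61 and 11.19. The forms of phosphofructokinase moved apart, with the liver-type Pfkl up by 2.82 (SE 0.19, adjusted p = 0.000126) and the muscle-type Pfkm differing by -3.55 (SE 0.35, adjusted p = 0.000807). Pfkm is also a gene of skeletal muscle, whose markers fell in these tumors. Other members of the list did not pass with all 3 tumors, among them Ldha, Slc2a1 and Aldoa. With 1 array left out, the difference was 0.11 to 0.42 for Ldha and -1.11 to -0.64 for Aldoa. Hif1a and Car9 rose but lost their calls when single arrays were left out (adjusted p up to 0.066 and 0.0853). Car12 and Aldoc were also above the undifferentiated or spindle tumors, by 4.62 and 5.60 (adjusted p = 0.00884 and 0.00111).

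Of 18 genes of endothelium and angiogenic factors 4 rose and 1 fell (median -0.16), where 8.39% of all genes rose and 10.8% fell. Pgf, placental growth factor, read 6.11, 6.26, 6.45 and 6.50 in control skin and 8.98, 10.72 and 10.12 in the tumors, a rise of 3.61 (SE 0.38, adjusted p = 0.00108). Vegfa, the main growth factor of vessels, rose by 2.34 (SE 0.38, adjusted p = 0.00689), from 6.38 to 8.05 in control skin to 9.93, 9.69 and 9.36, and Angpt2, which loosens vessels, rose by 1.54 (SE 0.21, adjusted p = 0.00351). Apln, the peptide apelin, rose by 1.56 (adjusted p = 0.0335), a call that was lost without control skin 3 or p53 tumor 2 or 4 (adjusted p = 0.0705 to 0.0959), and Vegfc, a growth factor of lymphatic vessels, differed by -0.21 (adjusted p = 0.881). The endothelial receptor Kdr differed by -0.43 (adjusted p = 0.261), the adhesion molecule Pecam1 by -0.51 (adjusted p = 0.0711) and Cdh5, the cadherin of endothelium, by 0.10 (adjusted p = 0.867). Tek, the receptor of angiopoietins, fell by 3.35 (SE 0.19, adjusted p = 7e-05).

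Myc, a factor that drives ribosome production, read 7.96, 8.32, 8.23 and 8.26 in control skin and 9.66, 10.06 and 9.48 in the tumors, a rise of 1.54 (SE 0.17, adjusted p = 0.00146). Of 20 genes of Myc and ribosome biogenesis 10 rose and 1 fell. Without p53 tumor 5, 17 rose, where 12.3% of all genes did. Nop56, a core protein of nucleolar RNA modification, rose by 1.32 (SE 0.26, adjusted p = 0.0159). Of 14 genes of Polycomb and DNA methylation 4 rose and 1 fell, where 8.39% of all genes rose and 10.8% fell. Ezh2, the histone methyltransferase of Polycomb, read 8.05 to 8.55 in control skin and 10.06, 10.86 and 9.20 in the tumors, a rise of 1.71 (adjusted p = 0.0207) that was lost without control skin 1 or 2 or p53 tumor 2 (adjusted p = 0.0571 to 0.0643).

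Many markers of skeletal muscle, fat and sebaceous gland fell in the tumors, while those of smooth muscle and pericytes did so in part or not at all. All 30 measured genes of skeletal muscle fell, with a median of -7.74, against 10.8% of all genes. Myh4, a fast muscle myosin, read 13.40, 13.12, 12.94 and 12.86 in control skin and 3.58, 3.39 and 3.56 in the tumors, and it fell by 9.57 (SE 0.16, adjusted p = 6.43e-07), more than any other gene that passed. The mean log2 signal over the 30 genes was 11.90 to 12.20 in control skin and 4.83, 4.68 and 5.38 in the tumors. The muscle isoforms of respiratory chain subunits went the same way, in that Cox8b fell by 5.86 and Cox6a2 fell by 5.39 (adjusted p = 2.89e-06 and 1.96e-06). Of 15 adipocyte genes 11 fell (median -2.87), with Plin4, which coats lipid droplets, at 10.06, 10.51, 8.49 and 10.18 in control skin and 5.26, 4.41 and 4.90 in the tumors (adjusted p = 0.000794). Of 16 genes of sebaceous gland and epidermal lipids 7 fell and 1 rose, and Far2, a reductase for wax synthesis, fell by 6.87 (SE 0.29, adjusted p = 1.44e-05). Of 10 smooth muscle genes 4 fell and none rose (median -1.04), and of 6 pericyte genes none passed in either direction (median 0.22). The part of such tissues in the other falls was not tested.

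Several immune cell markers of normal skin fell. Cd207, the langerin of Langerhans cells, read 8.82, 9.77, 8.20 and 9.44 in control skin and 4.88, 4.30 and 4.41 in the tumors, and it fell by 4.53 (SE 0.37, adjusted p = 0.000366). Of 15 Langerhans and dendritic cell genes 5 fell and 1 rose, where 10.8% of all genes fell and 8.39% rose. Among them H2-Aa fell but lost its call in 5 fits with 1 array left out. Itgax did not pass and differed by -0.15 to 0.28 in such fits. Cd3g, a chain of the T cell receptor complex, fell by 3.79 (SE 0.52, adjusted p = 0.00363), and of 19 T and NK cell genes 11 fell and none rose (median -1.34). Csf1r, the growth factor receptor of macrophages, fell by 1.85 (SE 0.19, adjusted p = 0.00111), from 11.59 to 12.12 to 9.78, 10.38 and 10.10. Of 19 macrophage genes 2 fell and 1 rose against control skin, where 10.8% of all genes fell and 8.39% rose, whereas 13 were below the undifferentiated or spindle tumors and 1, Arg1, was above them by 3.82 (adjusted p = 0.0366), a call lost without any of the 3 poorly differentiated tumors (adjusted p = 0.0819 to 0.122). Arg1, the arginase of alternatively activated macrophages and of epithelia, rose against control skin by 2.54 (SE 0.27, adjusted p = 0.00123), from 8.27 to 9.08 to 10.83, 11.53 and 11.30. The chemokine receptor Cxcr4 rose by 3.80 (SE 0.70, adjusted p = 0.0121) and its ligand Cxcl12 fell by 3.93 (SE 0.20, adjusted p = 3.69e-05), from 10.74 to 11.21 to 6.71, 7.37 and 6.84. S100a8 and S100a9, neutrophil proteins also listed with stressed keratinocytes, rose only without p53 tumor 5, by 3.59 and 3.61 (adjusted p = 0.0216 and 0.000476). S100a9 read 4.40 in that tumor against 10.31 and 9.92 in p53 tumors 2 and 4. Of 14 neutrophil genes 2 rose, Cxcr4 among them, and 1 fell, where 8.39% of all genes rose and 10.8% fell. Without p53 tumor 5, 6 of them rose and 1 fell, where 12.3% of all genes rose and 13.6% fell. The neutrophil receptors Csf3r and Cxcr2 passed neither with all 3 tumors nor with any array left out, and Il1r2 of the same list fell.

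**Figure D5:**
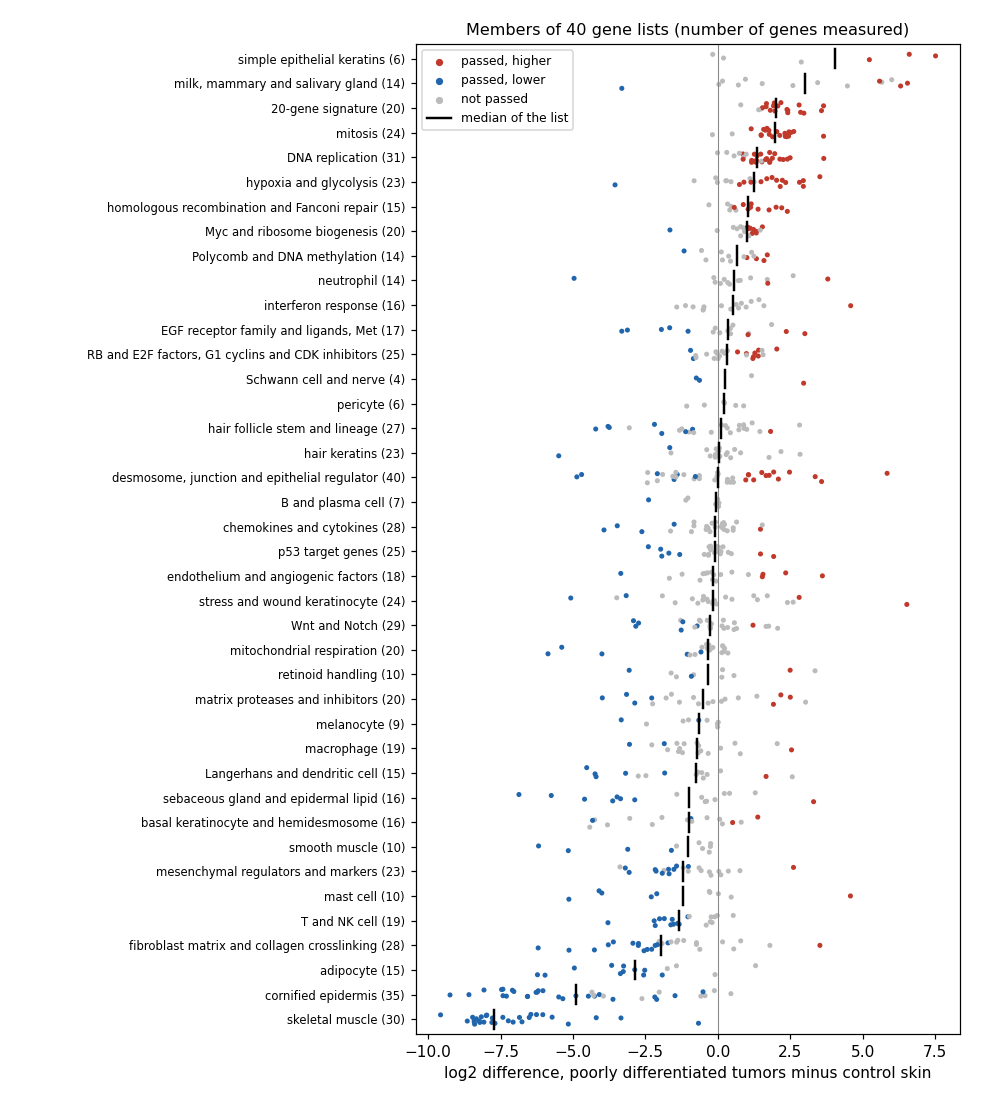
Log2 difference, poorly differentiated tumors minus control skin, for the members of 40 gene lists. Each point is a gene (red, passed and higher; blue, passed and lower; grey, not passed) and the black line is the median of the list, from 4.06 for simple epithelial keratins to -7.74 for skeletal muscle.

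The array p53 tumor 5 was the least like the other tumors. The correlation over all probesets was 0.9705 between p53 tumors 2 and 4, 0.9255 between 2 and 5 and 0.9189 between 4 and 5, and 0.9697 to 0.9957 among control arrays. Interferon-induced genes set p53 tumor 5 apart from p53 tumors 2 and 4. Ifit1, an antiviral RNA-binding protein, read 4.78 to 6.64 in control skin and 5.87, 5.01 and 10.28 in p53 tumors 2, 4 and 5. Gbp2, a guanylate-binding protein induced by interferon gamma, read 8.62 to 9.31 in control skin and 6.46, 5.33 and 11.63 in the tumors. The p53 tumors 2 and 4 lay below control skin for Gbp2 and p53 tumor 5 above it, and without p53 tumor 5 Gbp2 fell by 3.03 (adjusted p = 0.00169). The mean log2 signal over 16 interferon genes was 7.03 to 7.62 in control skin and 6.79, 6.48 and 10.12 in the tumors. It was 7.27 to 9.93 in the undifferentiated or spindle tumors, so high values were not particular to p53 tumor 5. Of these genes 1 rose with all 3 tumors, Xaf1, a partner of apoptosis inhibitors, by 4.59 (SE 0.73, adjusted p = 0.00659). Without p53 tumor 5, 7 of the 16 fell, where 13.6% of all genes did.

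Over 27 follicle genes the mean log2 signal was 7.52 to 7.85 in control skin and 7.76, 7.56 and 6.41 in p53 tumors 2, 4 and 5. The genes Lgr6, Edar and Krt73 were chosen after their values were seen. Lgr6, a receptor of upper follicle stem cells, read 8.29 to 8.93 in control skin and 11.52, 12.42 and 4.26 in the tumors, and without p53 tumor 5 it rose by 3.48 (adjusted p = 0.000432). Edar, the ectodysplasin receptor that starts hair placodes, read 4.46 to 4.85 in control skin and 8.28, 9.67 and 4.39 in the tumors, with a rise of 4.35 without p53 tumor 5 (adjusted p = 0.000387). Krt73, a keratin of the inner root sheath, read 5.78 to 5.89 in control skin and 8.39, 9.48 and 6.18 in the tumors. Of the follicle genes 1 rose and 7 fell with all 3 tumors, where 8.39% of all genes rose and 10.8% fell. Without p53 tumor 5, 10 rose and 7 fell, where 12.3% of all genes rose and 13.6% fell. Some markers of follicle stem cells fell. Lhx2, a factor of bulge stem cells, read 6.87, 8.11, 7.93 and 7.75 in control skin and 3.13, 3.25 and 3.97 in the tumors, and it fell by 4.22 (SE 0.34, adjusted p = 0.00033). Cd34, a surface marker of bulge cells and of dermal and vascular cells, fell by 3.79 (SE 0.19, adjusted p = 3.55e-05). In p53 tumor 5 Prol1, a proline-rich protein of saliva and tears, read 10.95, against 2.90 to 3.19 in control skin and 3.0 and 3.03 in p53 tumors 2 and 4.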

How the data were processed

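Total RNA of 16 whole-tissue samples (4 control skin, 12 tumors) was hybridized to Affymetrix mouse genome arrays, 1 array per sample. The deposited values are log2 signals that the authors normalized and summarized by RMA, and they were used as deposited. The tumors and control arrays were grouped by the labels alone. Annotation gave 34945 of 45037 probesets a single gene symbol, 932 several and 9160 none, and 18193 genes were each represented by the probeset whose mean signal over the 16 arrays was highest. Near-identical genes, such as the Lce1 family, may share probes.

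Groups were compared with limma 3.58.1 in R 4.3.3 (linear model per probeset, empirical Bayes), with Benjamini-Hochberg adjustment over all 45037 probesets and a threshold of 0.05. Only the groups compared entered a fit. The script was tested on simulated data. The number of arrays limits the precision. Genes were named by rule: Rb1, the 12 largest differences each way against control skin and the 8 largest each way against undifferentiated or spindle tumors among genes that passed without overlap, up to 4 members per list and the key members of each list. Another 25 genes named in the text, Lor, Cdc20, Fas, Pfkl, Lgr6 and Prol1 among them, were chosen after their values were seen. The arrays were assigned by histology label, but the choice of this comparison and of the 41 lists was made with earlier results of these data known. Title numbers shared by the groups did not pair arrays (correlations of deviations -0.0294 and -0.0236 against control skin, 0.0455 and 0.0126 against undifferentiated or spindle tumors). Alternatives covered a replicate block, all 16 arrays in 1 fit, normalization, dim probesets, the prior, array weights, sex, genotype, the methods' t-test, the threshold and each array left out. Promoters and coordinates are from RefSeq (GRCm38.p6). Figures were drawn with matplotlib 3.10.9.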

Additional observations from a re-analysis of the deposited data

Results flagged for a closer look

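Of 142 of the genes named in the text, some had 1 array far from the rest of its group by Dixon's criterion, which chance meets in about 1 of 20 groups. Control skin 3 was the far array, on the high side, for 7 genes: Krt8 (6.64), Krt18 (6.60), Klk7 (11.8), Csn2 (9.83), Csn1s2a (6.89), Mia (4.61) and Erbb2 (9.01). Control skin 1 was the far array, on the low side, for 6 genes: Krt14 (12.9), Esrp1 (10.9), Tfap2c (8.66), Aurka (5.64), Birc5 (5.41) and Bnc2 (7.30). Control skin 4 was low for Cldn3 (7.39).

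Among undifferentiated or spindle tumors, p53 tumor 3 was high for Epcam (6.87), Csn1s1 (8.71), Csn2 (10.8) and Csn1s2a (9.28), and pRbp53 tumor 5 for Myh4 (7.20), Cox6a2 (7.75) and Plin4 (6.23). The pRbp53 tumor 2 array was high for Lama5 (7.97) and Angpt2 (7.96), pRbp53 tumor 3 for Tfap2c (4.62), pRbp53 tumor 1 for Csf1r (12.6) and p53 tumor 6 for E2f3 (8.64).

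Some genes passed in opposite directions in the tumor types, each against the same control skin, and the direct comparison of poorly differentiated with undifferentiated or spindle tumors passed as well. The genes that rose in poorly differentiated tumors and fell in the others were Krt7 (direct difference 5.81), Dsc2 (5.20), Cldn3 (4.74), Dsg2 (6.15), Grhl2 (4.44), Epcam (6.96), Elf5 (6.63), Ehf (6.93), Tfap2c (6.97), Kcnk1 (6.22), Erbb2 (4.32) and Aldoc (5.60). Those that fell in poorly differentiated tumors and rose in the others were Zeb1 (-3.27), Vim (-2.0), Mmp9 (-5.38), Grem1 (-5.33), Bnc2 (-5.15) and Ereg (-4.73).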

How the results depend on the processing

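Against control skin 6677 probesets passed. The number was 4422 with control skin 2 and 4 averaged, 4038 with sex as a covariate, 3401 with control skin 2 and 4 alone as control (chosen after seeing the data), 2931 at an adjusted p of 0.01, and 4253 to 9055 with 1 array left out. Without control skin 1, 2 or 4 it was 4373, 4253 or 4424. The methods' t-test passed 11353 probesets before adjustment and 3834 after Benjamini-Hochberg adjustment, and Welch's form of it 1288. The share of passing probesets that were higher was 47.8%, and 36.1%, 31.9%, 32% and 37.4% with sex as a covariate, with control skin 2 and 4 alone, by Welch's form and at 0.01. Against undifferentiated or spindle tumors 3326 passed, 2024 with genotype as a covariate, 827 among p53 tumors only, and 2039 to 3473 with 1 array left out (2039 without p53 tumor 4). Of the list counts, the 24 DNA replication genes that rose became 12 with all 16 arrays in 1 fit, 14 with sex, 14 with control skin 2 and 4 alone and 12 to 23 with 1 array left out. The 14 hypoxia genes became 8 with all 16 arrays and 7 with control skin 2 and 4 alone. The 10 mesenchymal genes that fell became 5 with sex, 5 with control skin 2 and 4 alone and 6 to 11 with 1 array left out. All 30 muscle genes fell whichever array was left out. The tumors and control skin 2 and 4 all lack Y-linked signal. With sex as a covariate the difference therefore equals that with control skin 2 and 4 alone, and only the estimate of its error differs. The cause of the other shifts was not tested. Of 294 genes followed, 63 lost their call with control skin 2 and 4 alone, 47 with sex and up to 34 with 1 array left out. With single arrays left out, the difference changed sign for 30 of them against control skin and 45 against undifferentiated or spindle tumors, 0 of which had passed in that comparison by limma.

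With the title number as a replicate block, which the pairing check did not bear out, 6781 probesets passed against control skin and 0 by limma against undifferentiated or spindle tumors, where 5532 had an unadjusted p under 0.05. The poorly differentiated tumors share only the numbers 2 and 4 with control skin, and only 2 and 5 with undifferentiated or spindle tumors. A difference within blocks rests on those pairs. Arrays without a partner, such as p53 tumor 5 against control skin, add nothing to it. Under this block Krt16 differed by 0.92 (limma, adjusted p = 0.0377) against -0.04 without it. Without the block, Krt16 differed by -0.87 to 1.35 with single arrays left out. The part of the arrays without a partner in these shifts was not tested.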
